A study of Homo sapiens with 16 samples.

Results

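The genes described here encode the AKT kinases AKT1 and AKT2, their upstream kinase PDPK1, and the subunits of the 2 mTOR complexes: MTOR, RICTOR, RPTOR, MLST8 and MAPKAP1. They were taken by gene symbol, matched to the Ensembl identifiers of the counts table through GENCODE release 44, and make up 8 of the 43836 genes listed. RNA-seq was analyzed for 16 libraries of KG-1, a human acute myeloid leukemia (AML) cell line of suspension myeloblasts, with 2 libraries for each of 8 conditions. Control cells, carrying a lentiviral non-target shRNA, received 0.3% DMSO for 48 h, 50 μM STL427944 (a compound directed at FOXM1) for 48 h, 0.75 μM AraC (cytarabine, a nucleoside analog) for 48 h, 100 nM venetoclax (a BCL2 inhibitor) for 48 h, or 30 μM MK-2206 (an allosteric inhibitor of all AKT kinases) for 24 h. FOXM1-KD cells, carrying a lentiviral shRNA against the transcription factor FOXM1, received DMSO, AraC or venetoclax at the same doses for 48 h. All cells had been selected with 4 μg/mL puromycin. Each genotype was a stable transduced culture, so the libraries of a genotype share 1 transduction, and the time of MK-2206 differs from that of its DMSO control.

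AKT kinases are activated at the membrane after PI3K signaling. PDPK1 phosphorylates their activation loop, and mTOR complex 2 (mTORC2), built from the kinase MTOR with MLST8, RICTOR and MAPKAP1 (SIN1), phosphorylates their hydrophobic motif. mTOR complex 1 (mTORC1), built from MTOR with MLST8 and RPTOR, lies downstream of AKT and drives protein synthesis and cell growth. In AML this pathway is often active and supports survival of the leukemic cells, and FOXM1 is a proliferation factor that has been linked to it.

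Promoter sequence was read for 7 of the 8 genes from RefSeq windows of GRCh38.p14, and MLST8 is named only. The 250 bases before the start are printed 5′ to 3′ for AKT1 and MAPKAP1, the members with the widest range between conditions, and for MTOR and RPTOR, the members that hold the cell cycle homology element (CHR). Capitals mark that element, TTTGAA or its reverse complement TTCAAA. The AKT1 window is chr14:104795749-104795998 on the minus strand, that of MAPKAP1 chr9:125707209-125707458 on the minus strand, that of MTOR chr1:11262552-11262801 on the minus strand, and that of RPTOR chr17:80544588-80544837 on the plus strand.
AKT1: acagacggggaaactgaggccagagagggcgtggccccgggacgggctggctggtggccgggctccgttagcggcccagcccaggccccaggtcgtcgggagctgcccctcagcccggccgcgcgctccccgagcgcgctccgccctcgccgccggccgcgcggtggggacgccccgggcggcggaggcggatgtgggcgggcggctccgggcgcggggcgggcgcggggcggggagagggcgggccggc
MAPKAP1: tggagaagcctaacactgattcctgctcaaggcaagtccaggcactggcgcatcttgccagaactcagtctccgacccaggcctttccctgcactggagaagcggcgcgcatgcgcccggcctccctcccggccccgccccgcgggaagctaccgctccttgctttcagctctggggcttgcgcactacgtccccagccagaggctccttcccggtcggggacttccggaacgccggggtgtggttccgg
MTOR: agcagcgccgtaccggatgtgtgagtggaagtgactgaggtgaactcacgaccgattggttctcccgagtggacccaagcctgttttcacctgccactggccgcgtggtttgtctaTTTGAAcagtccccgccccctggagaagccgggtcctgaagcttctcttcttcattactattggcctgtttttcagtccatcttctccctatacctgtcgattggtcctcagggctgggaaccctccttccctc
RPTOR: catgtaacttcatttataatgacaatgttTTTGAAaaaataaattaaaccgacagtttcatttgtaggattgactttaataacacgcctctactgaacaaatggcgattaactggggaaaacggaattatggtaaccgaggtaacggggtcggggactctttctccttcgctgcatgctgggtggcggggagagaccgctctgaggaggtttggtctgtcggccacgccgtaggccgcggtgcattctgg
The table holds a second AKT1 window, chr14:104793602-104793851, which was 57.2% G and C. The AKT1 window printed here was 83.2% G and C, against 66.8% for MAPKAP1, 55.6% for MTOR and 47.2% for RPTOR. A CHR element began 134 bases before the start of MTOR and 221 bases before that of RPTOR, and 15.2% of all 35116 windows of 300 bases held 1 on either strand. The forkhead core TGTTTAC, or GTAAACA on the other strand, was in none of the members' windows and in 3.42% of all windows. For the members as for all windows the search took in the 250 bases before and the 50 after the start. These matches describe letters in a window and are not binding sites.

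Library totals ran from 7351755 to 21362546 counts, and the lowest 2 were those of MK-2206 (7351755 and 10330720). FOXM1 itself was at 138 to 140.0 CPM (counts scaled to a common library size by TMM) in the control DMSO libraries and at 48.8 and 81.8 CPM in the FOXM1-KD DMSO libraries. With AraC it was at 181 and 156 CPM in control and 121 and 114 CPM in FOXM1-KD cells, and with venetoclax at 121 and 127 CPM in control and 50.6 and 57.0 CPM in FOXM1-KD cells. FOXM1-KD AraC replicate 1 was thus level with control venetoclax replicate 1, the lowest of the 6 control libraries compared. Over the 6 against 6 libraries FOXM1 was lower in FOXM1-KD cells, by -0.94 ± 0.16 (SE) on the log2 scale (edgeR quasi-likelihood test, Benjamini-Hochberg adjusted p = 1.24e-08). The myeloid markers did not sit alike in the libraries. CD34, a stem and progenitor marker that defines KG-1, had 12483 to 28951 counts in the 8 control libraries without MK-2206, 0 to 4 in the FOXM1-KD libraries, and 7 and 18 in those labelled MK-2206. MPO, a granule enzyme, had 5 to 242, 28881 to 155753, and 3888 and 3424 counts in the same order. Summed over 7 KG-1 markers, the level was 2020 to 2780 CPM, 2540 to 11500 CPM, and 662 and 749 CPM. In FOXM1-KD cells with DMSO, MPO had a mean of 4890 CPM and the sum was 5420 and 5670 CPM. In control cells with DMSO MPO was at 2.28 CPM, so the sum is not read as likeness to KG-1. With DMSO, HLA-DRA (mean 138 against 849 CPM), ANPEP (86.7 against 138) and PTPRC (170 against 207) were lower in FOXM1-KD than in control cells. CD33 (92.1 against 38.1) and SPI1 (168 against 112) were higher. The 8 markers of other cells summed to 87.6 to 175 CPM in control libraries without MK-2206, 5.91 to 48.9 CPM in FOXM1-KD libraries, and 7.28 and 8.32 CPM with MK-2206. PECAM1, at 19 to 3466 counts, made up most of the control sum, with a mean of 158 CPM with DMSO, where the sum was 159 and 167 CPM. The sum is therefore not read as a share of other cells. CD3E was at 0 to 176 counts, and EPCAM, the epithelial marker, had at most 2 counts in any library. As root mean square difference of log2 CPM, the MK-2206 libraries lay at 1.77 to 2.17 from the FOXM1-KD libraries and at 2.54 to 2.83 from the other control libraries, although the labels give them the control shRNA. STL427944 replicate 2 and control venetoclax replicate 1 lay nearer to each other (0.486) than to their own replicates (0.834 and 0.804). What part these differences between libraries have in the results below was not tested. In bulk RNA, fewer cells of a type and less RNA per cell cannot be told apart.

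All 8 genes were measured in all 16 libraries, with 203 to 4618 counts per gene and library. Per kb of merged exons, the mean CPM in control cells with DMSO was 16.0 ± 0.52 (SD, n = 2) for RPTOR, 15.2 ± 0.12 for MTOR, 13.7 ± 0.63 for MAPKAP1, 11.4 ± 0.24 for MLST8, 10.9 ± 0.49 for AKT2, 9.07 ± 0.039 for RICTOR, 8.93 ± 0.32 for AKT1 and 5.41 ± 0.17 for PDPK1. RPTOR and MTOR, MLST8 and AKT2, and RICTOR and AKT1 were neighbours in this order whose levels differed by less than 2 times the larger SD. The order depends on the length used. By the canonical transcript, AKT1 (33.1) and AKT2 (32.9) came first and PDPK1 (8.22) stayed last, in mean CPM per kb. Compared with other genes, most members were even across the study. The SD of log2 CPM over the 16 libraries was 0.197 for MTOR, lower than for all but 0.683% of 12583 protein-coding genes, and 0.275 to 0.347 for AKT2, PDPK1, RPTOR and RICTOR. It was 0.406 for MLST8, 0.59 for MAPKAP1 and 0.641 for AKT1, against a median of 0.717 over those genes. High counts alone lower this SD, so the ranks describe these libraries.

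**Figure D1:**
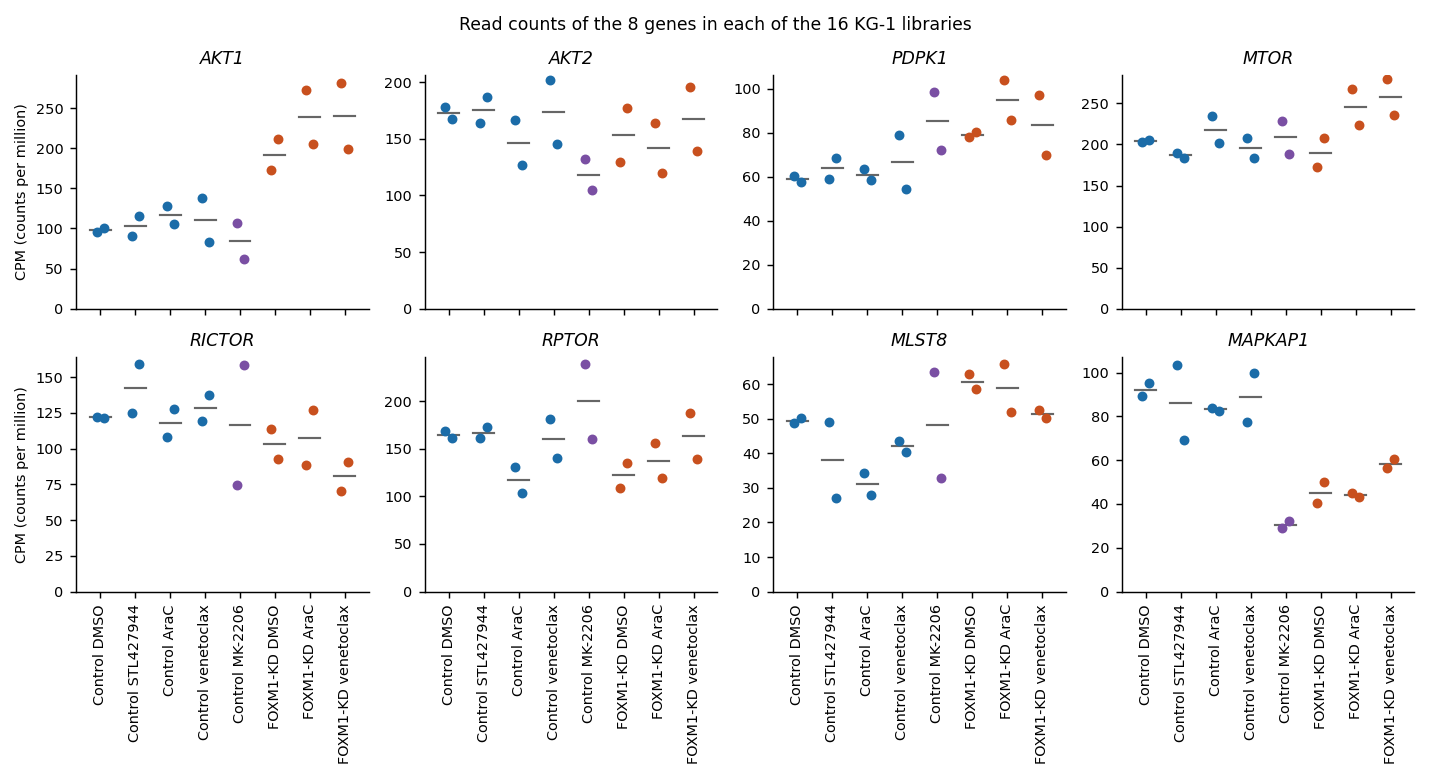
Level of each of the 8 genes (CPM, counts scaled by TMM) in the 16 KG-1 libraries, by condition, with points as libraries (blue, control; purple, control with MK-2206; orange, FOXM1-KD) and bars as means of 2. AKT1 lies at 173 CPM or more in all FOXM1-KD libraries and at 138 CPM or less in all control libraries, and MAPKAP1 lies at 60.4 CPM or less in the FOXM1-KD libraries and at 29.0 and 32.0 CPM with MK-2206.

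The comparison of FOXM1-KD with control cells asked whether partial FOXM1 knockdown goes along with other transcript levels of the AKT axis. FOXM1 transcript was at 0.52-fold of control over the 6 against 6 libraries. Over DMSO, AraC and venetoclax together (6 against 6 libraries, treatment as a term), 5 of the 8 genes changed: AKT1, PDPK1 and MLST8 were higher and MAPKAP1 and RICTOR lower. A change here means an adjusted p below 0.1 by the edgeR quasi-likelihood test with Benjamini-Hochberg adjustment over all genes tested. Of all 28010 genes tested, 43.7% passed this test. Of the 12581 expressed protein-coding genes, which are nearer to the members in level, 4251 were higher and 4194 lower, so that the count of 5 of 8 is not read as a result about the members. With a 2-fold change also required, AKT1 alone passed, against 28.2% of all genes. The median log2 fold change of the 8 genes was 0.05, and that of 12581 protein-coding genes was 0.03.

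AKT1 (ENSG00000142208, chr14:104769349-104795751) encodes the most widely used AKT kinase. In control cells it was at 95.4 and 100.3 CPM with DMSO, 128 and 105 CPM with AraC, and 138 and 83.3 CPM with venetoclax. In FOXM1-KD cells it was at 173 and 211 CPM with DMSO, 272 and 205 CPM with AraC, and 281 and 199 CPM with venetoclax. The lowest FOXM1-KD library was above the highest control library. Its level was 2.05-fold higher (log2 1.04 ± 0.15 SE; edgeR adjusted p = 3.64e-11, 12 libraries), and the higher level was seen within DMSO (0.98 ± 0.14, adjusted p = 0.013), AraC (0.99 ± 0.19, adjusted p = 1.02e-06) and venetoclax (1.12 ± 0.37, adjusted p = 0.0141). Within DMSO the call was lost without either control DMSO library (adjusted p = 0.115 without replicate 2, and above 0.1 without replicate 1), and within venetoclax it was lost without control replicate 2 (0.268) or FOXM1-KD replicate 1 (0.402), all by edgeR.

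AKT2 (ENSG00000105221, chr19:40230317-40285536), the kinase best known from insulin signaling, did not follow AKT1. It was at 127 to 202 CPM in the 6 control libraries (median 167 CPM) and at 119 to 196 CPM in the 6 FOXM1-KD libraries (median 152 CPM), and the groups overlapped over nearly their whole range. Its log2 fold change was -0.09 ± 0.15, with a 95% interval of -0.39 to 0.20.

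The balance of the AKT kinases was compared within libraries, where the scaling of a library drops out. The AKT1:AKT2 ratio of counts per kb was 0.776 and 0.869 in control cells with DMSO, 1.12 and 1.21 with AraC, and 0.99 and 0.833 with venetoclax. In FOXM1-KD cells it was 1.94 and 1.73 with DMSO, 2.41 and 2.50 with AraC, and 2.08 and 2.07 with venetoclax. No FOXM1-KD library had a ratio within the control range. The ratio was 2.21-fold higher in FOXM1-KD cells (log2 difference 1.14), with a p of 0.00926 in the exact two-sided permutation test within treatments, the smallest that the 216 arrangements allow, and 0.037 after adjustment over the 4 ratios tested. With MK-2206 the ratio was 1.18 and 0.86, within the range of the other control libraries.

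MAPKAP1 (ENSG00000119487, chr9:125437393-125707234) encodes SIN1, the subunit that brings substrates to mTORC2. It was at 89.2 and 95.2 CPM in control cells with DMSO, 83.8 and 82.7 CPM with AraC, and 77.6 and 99.8 CPM with venetoclax. In FOXM1-KD cells it was at 40.4 and 49.9 CPM with DMSO, 45.1 and 43.2 CPM with AraC, and 56.5 and 60.4 CPM with venetoclax. All 6 FOXM1-KD libraries were below all 6 control libraries. The log2 fold change was -0.85 ± 0.16 (adjusted p = 1.17e-06, edgeR), and it was -1.02 ± 0.15 within DMSO (adjusted p = 0.0135) and -0.95 ± 0.22 within AraC (adjusted p = 5.6e-05). Within venetoclax it was -0.60 ± 0.39 with an adjusted p of 0.328, and with the replicate number as a block it was -0.59 with an adjusted p of 0.014 (edgeR). Without either control DMSO library the call within DMSO was lost (adjusted p = 0.102 and 0.119).

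RICTOR (ENSG00000164327, chr5:38937920-39074402), the scaffold of mTORC2, was at 108 to 137 CPM in the 6 control libraries (median 122 CPM) and at 70.2 to 127 CPM in the 6 FOXM1-KD libraries (median 91.8 CPM). The groups overlapped in 2 FOXM1-KD libraries, DMSO replicate 1 at 114 CPM and AraC replicate 2 at 127 CPM. Its log2 fold change was -0.35 ± 0.16 (adjusted p = 0.0619, edgeR), and 8 of 20 alternatives lost the call, with adjusted p-values from 0.0252 to 0.192 over all 20. Leaving out control AraC replicate 2 (0.103), control venetoclax replicate 2 (0.149), FOXM1-KD DMSO replicate 2 (0.136), FOXM1-KD AraC replicate 1 (0.128) or FOXM1-KD venetoclax replicate 1 (0.192) each ended the call (edgeR adjusted p). In the comparisons as reported RICTOR passed in no single treatment. Its adjusted p of 0.235 within venetoclax became 0.00354 with the replicate number as a block (log2 fold change -0.68). That of 0.577 within AraC became 0.0559 with the block (edgeR). Within libraries, the MAPKAP1:RICTOR ratio ran from 1.29 to 1.56 in control and from 0.68 to 1.61 in FOXM1-KD cells, and was lower in the latter by 0.49 on the log2 scale on average (exact permutation p = 0.0463, adjusted p = 0.0926), with an adjusted p of 0.102 without control DMSO replicate 2. Both mTORC2-specific subunits among the members were lower over the 12 libraries, MAPKAP1 in all libraries and RICTOR with overlap. The RICTOR call was the one that 8 of 20 alternatives lost.

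MTOR (ENSG00000198793, chr1:11106535-11262556), the kinase of both complexes, was at 183 to 234 CPM in control cells (median 204 CPM) and at 172 to 280 CPM in FOXM1-KD cells (median 230 CPM). Its log2 fold change was 0.15 ± 0.15 with a 95% interval of -0.13 to 0.44, and the lowest and highest of these 12 libraries were both FOXM1-KD. RPTOR (ENSG00000141564, chr17:80544819-80966371), the scaffold of mTORC1, was at 104 to 181 CPM in control and 109 to 188 CPM in FOXM1-KD cells, with a log2 fold change of -0.06 ± 0.15 and a 95% interval of -0.36 to 0.23. In the comparisons as reported, neither gene passed the test in any of the 3 treatments, with RPTOR at -0.42 within DMSO (adjusted p = 0.116, edgeR). With a stricter filter on counts (filterByExpr) 5 of the 8 genes passed within DMSO, and these are counted here but not named. Of all genes kept by that filter 60.4% passed, so the count is not read as a result about the members. RPTOR passed within AraC with the replicate number as a block (log2 fold change 0.18, adjusted p = 0.0521, edgeR). Over the 8 numbered libraries with that block MTOR passed as well (0.28, adjusted p = 0.0968). The RPTOR:RICTOR ratio within libraries did not pass either, with an exact permutation p of 0.278. Its lowest values were 1.06 in control and 1.22 in FOXM1-KD cells and its highest values 1.98 and 3.50.

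MLST8 (ENSG00000167965, chr16:2204248-2209453), the small subunit shared by both complexes, was at 48.7 and 50.2 CPM in control cells with DMSO, 34.3 and 27.9 CPM with AraC, and 43.6 and 40.5 CPM with venetoclax. In FOXM1-KD cells it was at 62.9 and 58.6 CPM with DMSO, 65.9 and 52.0 CPM with AraC, and 52.5 and 50.2 CPM with venetoclax. The groups did not overlap, but the lowest FOXM1-KD and the highest control library were equal to 3 digits. The log2 fold change was 0.50 ± 0.17 (adjusted p = 0.0109, edgeR), and the difference was widest within AraC (0.88 ± 0.23, adjusted p = 0.000418), where MLST8 was also lowest in control cells. Without control AraC replicate 2 the call within AraC was lost (adjusted p = 0.162, edgeR). BRICD5, on the opposite strand over part of MLST8, had 9.09% as many counts as MLST8. PDPK1 (ENSG00000140992, chr16:2537979-2603188) was at 54.3 to 78.7 CPM in control (median 59.5 CPM) and 69.9 to 104 CPM in FOXM1-KD cells (median 83.0 CPM), which came to 0.46 ± 0.16 on the log2 scale (edgeR adjusted p = 0.0128). Control venetoclax replicate 1, at 78.7 CPM, was the control library inside the FOXM1-KD range. PDPK1 also passed within DMSO (0.43 ± 0.10, adjusted p = 0.0426) and within AraC (0.60 ± 0.21, adjusted p = 0.0139), but not within venetoclax (0.33, adjusted p = 0.655, edgeR). The DMSO call was lost without either control DMSO library (0.274 and 0.337), and the AraC call without either control AraC library (0.205 and 0.329) or FOXM1-KD AraC replicate 1 (0.157). PDPK1 has a near-identical pseudogene copy, so its count is uncertain. The MTOR:MLST8 ratio within libraries was lower in FOXM1-KD cells by 0.35 on the log2 scale (exact permutation p = 0.0741, adjusted p = 0.0988), with 1.33 to 2.36 in control and 0.891 to 1.74 in FOXM1-KD cells. It no longer passed without control DMSO replicate 1 or replicate 2 or FOXM1-KD DMSO replicate 1 (adjusted exact permutation p = 0.102 each) or FOXM1-KD venetoclax replicate 2 (0.111).

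Of the 8 genes, AKT1, MLST8 and MAPKAP1 thus had no overlap in CPM between 6 and 6 libraries, and 22.7% of the 28010 genes tested had none. By single treatments, 3 genes passed with DMSO (background 37.5%, and 25.1% with the 2-fold rule, which MAPKAP1 met), 4 with AraC (43.3%, and 29.3% with the 2-fold rule, which none met) and AKT1 alone with venetoclax (26.1%, and 24.3% with the 2-fold rule, which AKT1 met). With the replicate number as a block, 3 genes passed with venetoclax, 6 with AraC, and 6 over the 8 numbered libraries of both treatments. The share of all genes that passed with the block was 36.4%, 52.0% and 40.1% in the same order. These counts are therefore not read as results about the members, nor are counts with 1 library left out of a pair. A gene that passed in 1 treatment is not shown to differ between treatments, and the test of that difference is given with the drugs. These counts share libraries with each other and with the 12-library comparison.

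**Figure D2:**
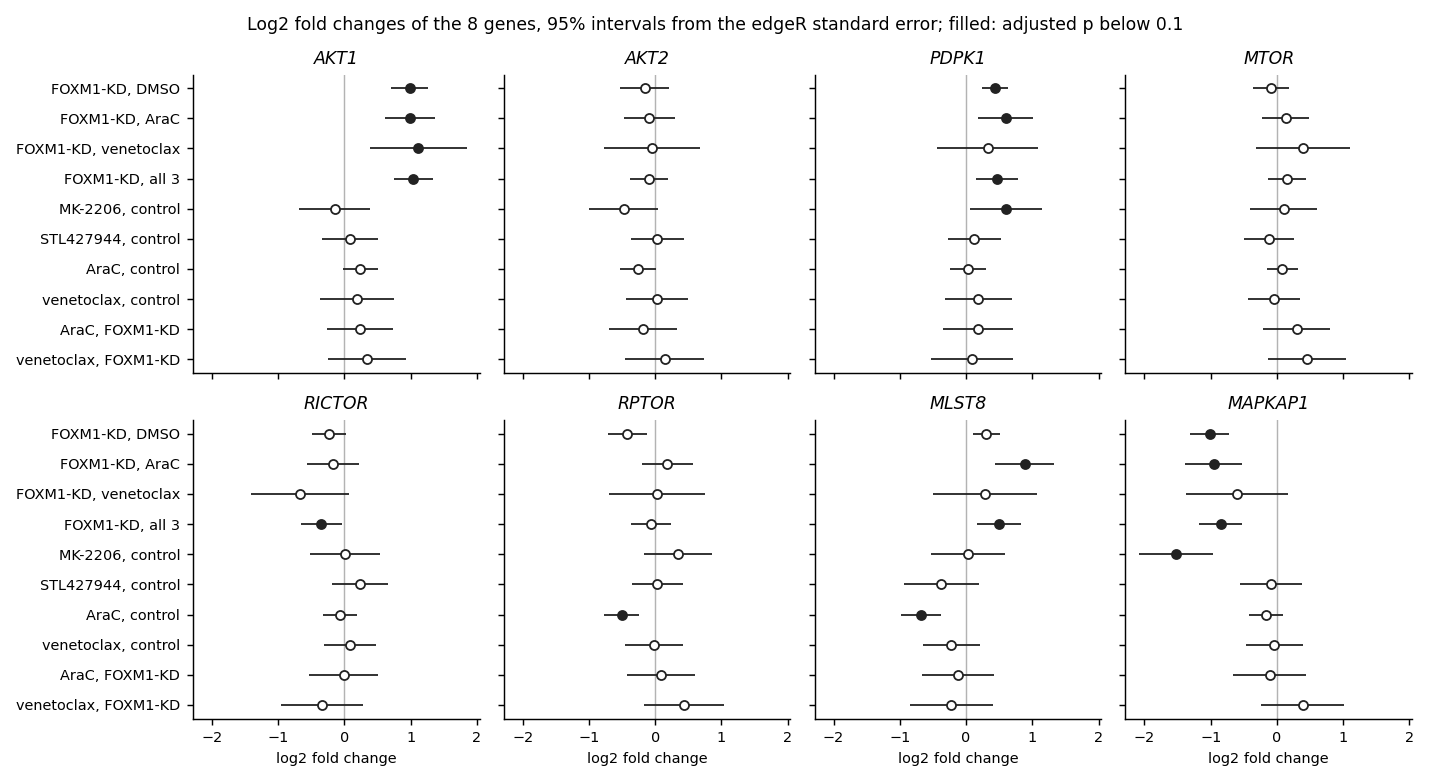
Log2 fold change of each of the 8 genes in 10 comparisons, with 95% intervals from the edgeR standard error, filled where the adjusted p is below 0.1, with FOXM1-KD against control in the first 4 lines of a panel and a drug against DMSO in the others. AKT1 lies near 1 in all 4 comparisons of FOXM1-KD with control and MAPKAP1 is lowest with MK-2206, at -1.52.

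**Figure D3:**
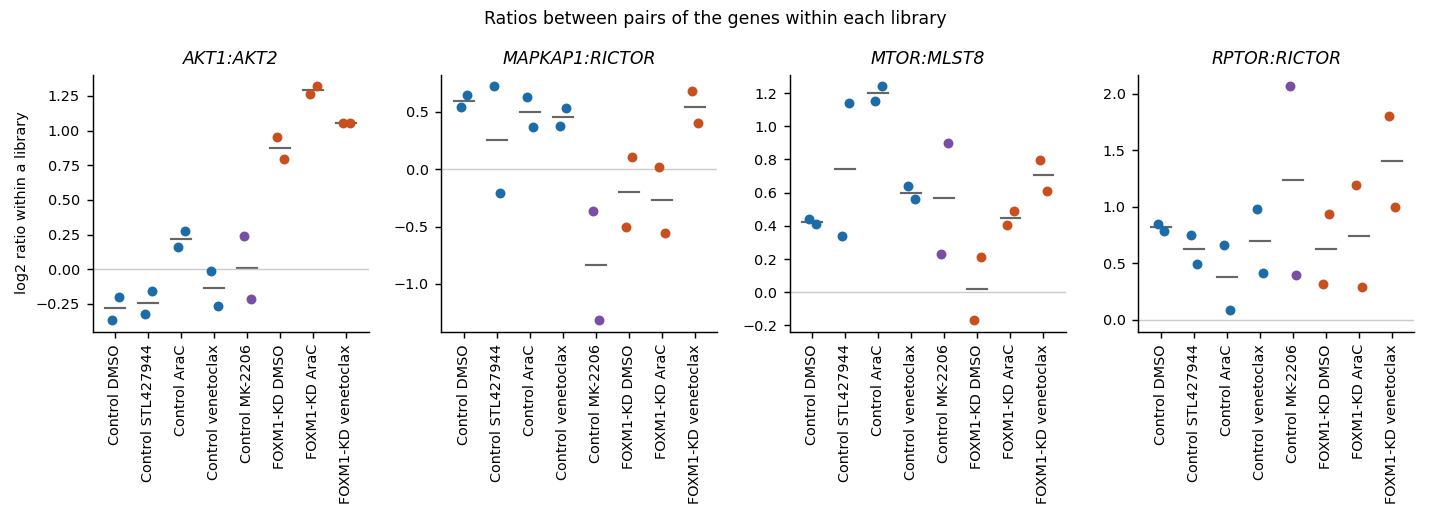
Log2 ratio of counts per kb between pairs of the genes within each library, by condition, with points as libraries (blue, control; purple, control with MK-2206; orange, FOXM1-KD) and bars as means of 2. AKT1:AKT2 is between 1.73 and 2.50 before the log in the FOXM1-KD libraries and at most 1.21 in the control libraries.

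Where the genes lie in the genome was also compared with their direction, a comparison made after the values were seen. Within 1 Mb of MAPKAP1 lay 11 other expressed protein-coding genes, and all 11 changed in FOXM1-KD cells, 10 lower and 1 higher. Their median log2 fold change was -1.06, against -0.85 for MAPKAP1. The stretch is wide: of the last 202 expressed protein-coding genes of chromosome 9, up to the end of its long arm, 154 were lower and 19 higher, with a median of -0.81, whereas the 297 genes before them had 106 lower and 92 higher and a median of 0.04. On chromosome 16, where MLST8 and PDPK1 lie within 1 Mb of each other, the 72 genes around MLST8 had a median of 0.50 and the 69 around PDPK1 a median of 0.50, beside 0.50 for MLST8 and 0.46 for PDPK1. The whole chromosome was shifted the same way, with a median of 0.52 up to 5 Mb and of 0.37 in the rest, where 219 were higher and 70 lower of 438. Around AKT1 the 22 neighbours had a median of 0.24, with 10 higher and 7 lower and a range from -8.72 to 12.53. AKT1 itself, at 1.04, was therefore further from its neighbours' median than MAPKAP1, MLST8 or PDPK1 were from theirs. What part the position has in these changes was not tested.

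**Figure D4:**
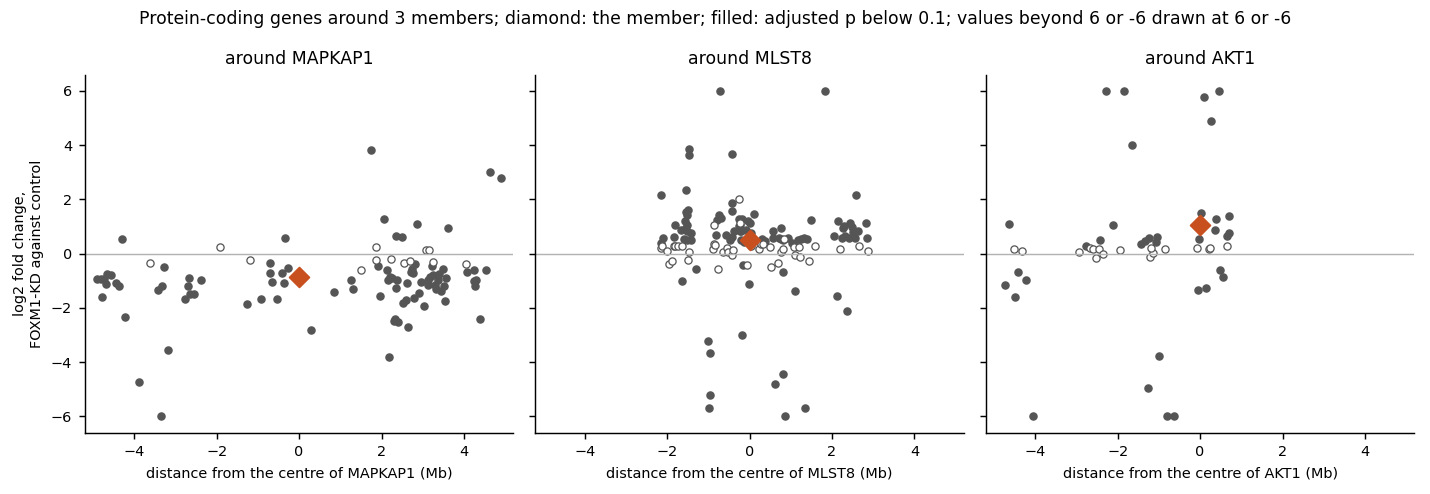
Log2 fold change in FOXM1-KD against control cells (12 libraries) for the expressed protein-coding genes within 5 Mb of MAPKAP1, MLST8 and AKT1, by distance from the middle of each in Mb, with orange diamonds for the 3 named genes, filled circles for an adjusted p below 0.1, open circles for the rest, and values beyond 6 or -6 drawn at 6 or -6. Most genes around MAPKAP1 lie below 0, and within 1 Mb 10 of 11 were lower.

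The genes whose pattern over the 16 libraries was most like that of each member were named by the smallest root mean square difference of centred log2 CPM. For MAPKAP1 they were FUBP3 (0.132) and ARPC5L (0.153), both on chromosome 9, at 130578965 and 124862130 of GRCh38. For AKT1 they were TSC22D4 (0.152) and OGG1 (0.164), on chromosomes 7 and 3. They were POLDIP3 and SCAMP3 for AKT2, FHIP1B and MAP7D1 for PDPK1, MAD2L1BP and GTF3C1 for MTOR, ZNF350 for RICTOR, DNM2 and WIZ for RPTOR, and ZNF671 and MTA1 for MLST8, with differences from 0.105 to 0.211. No member was among the nearest 2 genes of another, and the closest pair of members, MTOR and PDPK1, differed by 0.227. These are descriptions over libraries that share their genotype and scaling.

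MK-2206 was compared with DMSO in control cells to ask what inhibition of AKT itself goes along with. MAPKAP1 fell and PDPK1 was higher, and the other 6 genes did not pass the test. Of all 28905 genes tested, 50.7% passed, and 44% with the 2-fold rule, which MAPKAP1 alone met among the members. MAPKAP1 was at 29.0 and 32.0 CPM with MK-2206 against 89.2 and 95.2 CPM with DMSO, and its 2 values were below those of every other library. Its log2 fold change was -1.52 ± 0.29 (adjusted p = 6.19e-07, edgeR, 2 against 2 libraries), and it passed under all 9 alternatives. PDPK1 was at 98.5 and 72.1 CPM with MK-2206 against 60.3 and 57.7 CPM, or 0.60 ± 0.28 higher in log2 (adjusted p = 0.0667), and lost the call under 4 of 9 alternatives, both left-out DMSO libraries among them (adjusted p = 0.481 and 0.514, edgeR).

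The MK-2206 replicates were far apart for several members, and leaving out replicate 1 or replicate 2 left 6 and 7 members past the test. RICTOR was at 74.5 and 159 CPM, RPTOR at 239 and 160.5 CPM, MLST8 at 63.6 and 32.9 CPM, and AKT1 at 107 and 62.2 CPM. The RPTOR:RICTOR ratio was 4.19 in replicate 1 and 1.32 in replicate 2, with 1.06 to 1.98 in the other control libraries. Their mitochondrial shares were 6.68% and 18.4% of counts, against 1.32% to 3.05% in the other libraries. The 95% intervals of the log2 fold change were correspondingly wide, from -0.68 to 0.39 for AKT1, -0.51 to 0.54 for RICTOR, -0.41 to 0.61 for MTOR, -0.17 to 0.85 for RPTOR and -0.53 to 0.58 for MLST8. AKT2 was at -0.48 ± 0.27 (adjusted p = 0.134, edgeR). The median over 12577 protein-coding genes was -0.29, -0.51 by total counts and -0.18 by DESeq2 size factors, and the MAPKAP1 value stands beside that shift. In the MK-2206 libraries the 11 neighbours of MAPKAP1 also had a median of -1.64, with 8 lower and 1 higher.

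Since the MK-2206 libraries lay nearer to those of FOXM1-KD, they were also compared with the FOXM1-KD DMSO libraries, a comparison added after the data were seen. There AKT1 was lower (log2 fold change -1.16 ± 0.355, adjusted p = 0.00462, edgeR) and RPTOR higher (0.73 ± 0.35, adjusted p = 0.0905), and 40.6% of 28515 genes passed. MAPKAP1 did not pass, at -0.53 ± 0.37 (adjusted p = 0.266, edgeR), and the last 202 genes of chromosome 9 had a median of -0.06. AKT1 thus separated the libraries labelled MK-2206 from those of FOXM1-KD, while MAPKAP1 was low in both.

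AraC in control cells was followed by lower levels of 2 members, MLST8 and RPTOR, against a background of 19.4% of 22842 genes. Of the 12373 expressed protein-coding genes, nearer to the members in level, 2051 were higher and 1745 lower. The count of 2 is therefore not read as a result about the members. MLST8 was at 34.3 and 27.9 CPM against 48.7 and 50.2 CPM with DMSO (log2 fold change -0.69 ± 0.15, adjusted p = 0.00585, edgeR), and RPTOR was at 131 and 104 CPM against 169 and 161 CPM (-0.51 ± 0.13, adjusted p = 0.0176). With 2 libraries a condition, the values did not overlap for either gene. Those of AKT1, AKT2 and MAPKAP1, which did not pass, did not overlap either, and the share over all genes was not counted. Of 9 alternatives, 4 lost the call of MLST8 and 5 that of RPTOR. Without AraC replicate 1 and without AraC replicate 2 the adjusted p was 0.135 and 0.174 for MLST8 and 0.135 and 0.196 for RPTOR, and without DMSO replicate 1 and without DMSO replicate 2 that of RPTOR was 0.279 and 0.151 (edgeR). MLST8 was also lost without DMSO replicate 2 (adjusted p = 0.102). The other 6 genes had log2 fold changes from -0.26 (AKT2) to 0.24 (AKT1).

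In FOXM1-KD cells AraC left no member past the test, with log2 fold changes from -0.19 to 0.30 and adjusted p-values of 0.572 or more (edgeR), against a background of 16.2%. The difference between the AraC responses of the genotypes was largest for RPTOR (0.68 ± 0.26, adjusted p = 0.131) and MLST8 (0.65 ± 0.30, adjusted p = 0.269, edgeR interaction over 8 libraries). Neither passed, and 6.66% of all 26059 genes did. At an unadjusted p below 0.05 it was these 2 of the 8 genes, beside 3493 of the 26059 genes, so the count is not read as a result about the members.

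Venetoclax and STL427944 moved no member past the test. In control cells the log2 fold changes were -0.22 to 0.19 with venetoclax and -0.37 to 0.23 with STL427944, both ends being MLST8 on the low side, AKT1 on the high side with venetoclax and RICTOR with STL427944. Of all genes, 0% passed in either comparison (0 of 22593 with venetoclax and 0 of 22672 with STL427944 by edgeR, 188 and 281 at an unadjusted p below 0.05, and 0 and 1 by DESeq2). With STL427944 the 2 libraries were apart for MLST8 (49.0 and 27.1 CPM) and MAPKAP1 (103 and 69.0 CPM), and without replicate 1 of that drug RICTOR (0.42) and MLST8 (-0.84) passed, both at an adjusted p of 0.0874 (edgeR). In FOXM1-KD cells with venetoclax, log2 fold changes ran from -0.34 for RICTOR to 0.46 for MTOR, with adjusted p-values of 0.888 or more (edgeR), against a background of 2.13%. The venetoclax responses of the genotypes differed for no member, with 0.743% of 26393 genes past the edgeR interaction test. The intervals still allow differences, for MTOR from -0.25 to 1.26.

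A list of 60 other genes of the AKT and mTOR pathway was set beside the members. In FOXM1-KD against control cells (12 libraries), 21 were higher, 25 lower and 14 did not pass, with a median log2 fold change of -0.12, beside 4251 higher and 4194 lower of the 12581 expressed protein-coding genes. Among 7 complex partners and assembly factors, DEPTOR, an inhibitor in both complexes, was lower (-2.68 ± 0.22), as was PRR5, an mTORC2 subunit (-2.32 ± 0.21), and TELO2, which helps assemble kinases of the mTOR family, was higher (1.33 ± 0.16). In the TSC-RHEB axis, through which mTORC1 is controlled, TSC1 was lower (-1.30 ± 0.16) and DDIT4, a stress-induced inhibitor, was higher (1.62 ± 0.16). TSC1 lies on chromosome 9 at 132891348-132946874, within the stretch described with MAPKAP1. TELO2 lies on chromosome 16 at 1493344-1510457, within 1 Mb of MLST8.

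Amino acid sensing, with 24 genes, had 7 higher and 12 lower in FOXM1-KD cells. The sestrin SESN1, a leucine-dependent inhibitor, was at 91.9 ± 7.37 CPM in control and 9.69 ± 0.356 CPM in FOXM1-KD cells with DMSO (SD, n = 2), with a log2 fold change of -3.04 ± 0.19 over the 12 libraries. FLCN (-1.22 ± 0.18) and KPTN (-1.69 ± 0.20) were lower, and FNIP2, a partner of FLCN, was higher (2.03 ± 0.19). Of 13 substrates and effectors of mTORC1, 6 were higher and 5 lower. The translation factor EIF4B (1.61 ± 0.14) and the RNA-binding protein LARP1 (1.26 ± 0.14) were higher. EIF4EBP1, the translation repressor that mTORC1 phosphorylates, was lower (-1.42 ± 0.15). Of 11 regulators, relatives and substrates of AKT and mTORC2, 3 were higher and 4 lower, among them SGK1 (2.22 ± 0.23) and PRKCA (1.47 ± 0.16) higher and SGK3 (-2.21 ± 0.21) lower. All changes named here passed at an adjusted p below 0.1 and 2-fold (edgeR), and they were the largest of their group where no library fell below 10 counts. Of the genes below that minimum, named after their values were seen, PRR5L, a partner of mTORC2 related to PRR5, had the widest difference (-6.35 ± 0.24), with 64.3 ± 1.89 CPM in control and 0.713 ± 0.263 CPM in FOXM1-KD cells with DMSO (SD, n = 2). CASTOR1 (-2.30 ± 0.50) was lower and EIF4EBP3 (3.07 ± 0.53) higher, the latter from at most 22 counts a library. TRIB3, a pseudokinase that binds AKT, was higher as well (1.39 ± 0.17).

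**Figure D5:**
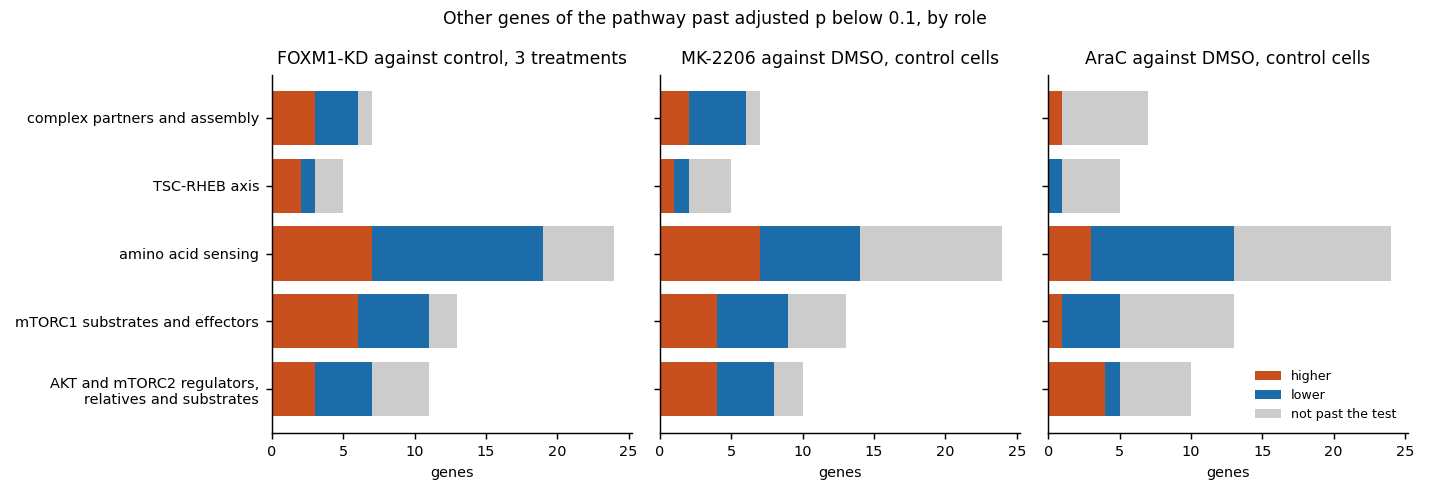
Number of the 60 other pathway genes in each of 5 role groups that were higher (orange), lower (blue) or did not pass (grey) at an adjusted p below 0.1, in FOXM1-KD against control cells, MK-2206 against DMSO and AraC against DMSO. With FOXM1-KD 21 were higher and 25 lower of 60, with MK-2206 18 and 21 of 59, and with AraC 9 and 16 of 59.

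With MK-2206, 18 of the 59 pathway genes tested were higher and 21 lower, with a median of 0.05, beside 3963 higher and 5353 lower of 12577 expressed protein-coding genes. The largest change was in SGK1, an AGC kinase that mTORC2 activates, at 1173 ± 372 CPM with MK-2206 and 2.85 ± 0.073 CPM with DMSO (SD, n = 2; log2 fold change 8.75 ± 0.34). AKT1S1 (PRAS40), a substrate of AKT in mTORC1, was at 363 ± 39.5 CPM against 31.5 ± 2.55 CPM (3.60 ± 0.29). DEPTOR (-3.62 ± 0.38) and PRR5 (-2.85 ± 0.34) were lower and TELO2 higher (1.32 ± 0.28). DDIT4 (3.33 ± 0.26), SESN2 (2.65 ± 0.27), FNIP2 (1.84 ± 0.31), TRIB3 (2.03 ± 0.29) and PHLPP1, a phosphatase of AKT (1.99 ± 0.25), were higher. The Rag GTPases RRAGD (-2.77 ± 0.31) and RRAGC (-1.93 ± 0.35), EIF4EBP1 (-2.35 ± 0.27), EEF2K (-2.32 ± 0.30) and SGK3 (-3.45 ± 0.37) were lower. GRB10 (1.81 ± 0.27) and LPIN1 (1.74 ± 0.28), both substrates of mTORC1, were higher. Below the minimum of 10 counts in every library, PRR5L was at 0.85 ± 0.596 CPM with MK-2206 (-6.10 ± 0.42), and CASTOR1 (3.41 ± 0.48) and EIF4EBP3 (4.75 ± 1.02) were higher. Log2 fold changes of these genes ran from -6.10 to 8.75, and those of the 8 members from -1.52 to 0.60.

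Drug responses of the list were smaller elsewhere. With AraC in control cells 9 were higher and 16 lower of 59, beside 2051 higher and 1745 lower of 12373 expressed protein-coding genes, and 3 passed the 2-fold rule: FNIP2 (1.22 ± 0.17) higher, and the KICSTOR and Ragulator subunits ITFG2 (-1.03 ± 0.15) and LAMTOR4 (-1.01 ± 0.19) lower. With AraC in FOXM1-KD cells 5 were higher and 7 lower of 60. SGK1 was higher there, at 58.5 ± 3.92 CPM against 4.28 ± 2.10 CPM with DMSO (3.70 ± 0.33), as were TRIB3 (1.47 ± 0.27) and SESN2 (1.07 ± 0.28). DEPTOR (-2.12 ± 0.40), PRR5 (-1.36 ± 0.37) and EIF4E, the cap-binding factor (-1.07 ± 0.27), were lower. With venetoclax in FOXM1-KD cells SGK1 (2.83 ± 0.39), SESN3 (1.57 ± 0.33) and PRKCA (1.10 ± 0.31) were higher. In control cells none of the 59 genes tested passed with venetoclax or STL427944.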

How the data were processed

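RNA-seq of 16 KG-1 libraries (8 conditions, 2 libraries each) was used as the raw gene counts that the authors deposited. Per the labels and the study's methods, the authors aligned reads to hg38 with STAR and counted them on Ensembl genes, non-coding RNAs included, with featureCounts, and versions and the strand setting are not given in the sources used here. The labels and the methods name different library kits, both with removal of ribosomal RNA. A UMI is part of the kit in the methods, and whether counts were collapsed by it is not given in the sources used here.

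Identifiers were matched to GENCODE 44 (43177 of 43836 genes matched). Counts were fitted per comparison with edgeR 4.0.16 in R 4.3.3 (TMM, glmQLFit and glmQLFTest, all genes with at least 1 count, 4 libraries, or 8 for a difference of responses and 12 for the 3 treatments together), with Benjamini-Hochberg adjustment over all genes tested. Genes passed at an adjusted p below 0.1, and under the 2-fold rule at an absolute log2 fold change of at least 1 as well. SE is the log2 fold change over the root of F. CPM is per library with TMM scaling, and levels per kb use merged exons. Ratios within libraries were compared by the exact two-sided permutation test within treatments. The scripts were tested on simulated data. Named pathway genes were at most 4 per role group, those with the largest change past the 2-fold rule and at least 10 counts in every library fitted. Alternatives were total counts, DESeq2 size factors, DESeq2 1.42.0, filterByExpr, all 16 libraries in 1 fit, an adjusted p below 0.05, each library left out, and a replicate block.

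The members, the pathway and marker lists and the alternatives were chosen with earlier results of these data known. The design text calls the 2 libraries of a condition biological replicates, and each differed from its partner by more than sampling noise (chi-square per degree of freedom 8.96 to 109.5). Replicate numbers stand in the titles of 5 conditions. Deviations of same-numbered libraries correlated at 0.296 to 0.48 over 14888 genes in all 10 pairs of conditions, so same-numbered libraries share a deviation. What it comes from was not tested. The comparisons as reported and the permutation test do not use the numbers, and the replicate block is given as an alternative. DMSO and STL427944 titles carry no number. Library totals were 7351755 to 21362546 counts, and intervals cover the spread between 2 libraries only. Protein sequences were not analysed here. Values of a few genes of the lists are not reported here.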

Additional observations from a re-analysis of the deposited data

How the results depend on the processing

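Over the 20 alternatives for FOXM1-KD against control cells in 12 libraries, AKT1 (0.95 to 1.23), PDPK1 (0.41 to 0.63), MLST8 (0.41 to 0.69) and MAPKAP1 (-0.92 to -0.76) passed in all 20, and RICTOR in all but 8. MAPKAP1 with MK-2206 passed under all 9 (-1.75 to -1.36). The count of members past the test changed by at least 1.5 times in these cases. With MK-2206 it was 1, not 2, at an adjusted p below 0.05 and with all 16 libraries in 1 fit. With AraC in control cells it was 0, not 2, with all 16 libraries. For FOXM1-KD within DMSO it was 5, not 3, after filterByExpr, beside 60.4% of all genes tested against 37.5%. For FOXM1-KD within venetoclax it was 2 with all 16 libraries and 3 with the replicate block, not 1. Of all genes, 24.7% and 36.4% passed there, against 26.1%. For FOXM1-KD within AraC it was 6 with the replicate block, not 4, beside 52.0% of all genes against 43.3%. In the 8 numbered libraries over AraC and venetoclax it was 6 with the block and 4 without it, beside 40.1% and 38.0% of all genes. Leaving out 1 library gave counts of 1 to 7 with MK-2206, 0 to 2 with STL427944, 0 to 1 with AraC in control cells, 0 to 7, 2 to 4 and 0 to 1 for FOXM1-KD within DMSO, AraC and venetoclax, and 0 to 1 for the difference of the AraC responses. Where 1 library was left to a condition, it was assumed to vary like the others. The share of all genes past the test moved as well, so these counts are not read as results about the members.

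Directions turned in values that had not passed the test. With total counts only, with MK-2206 MTOR was -0.11, RICTOR -0.25 and MLST8 -0.16, with AraC in control cells RICTOR was 0.0034, with venetoclax RPTOR was 0.016, in FOXM1-KD within venetoclax RPTOR was -0.072, and with AraC in FOXM1-KD cells RICTOR was 0.14, MLST8 0.044 and MAPKAP1 0.061. After filterByExpr AKT1 with MK-2206 was 0.017. With all 16 libraries RICTOR and MLST8 with MK-2206 were -0.064 and -0.038, and RICTOR with AraC in FOXM1-KD cells was 0.060. In FOXM1-KD over the 3 treatments RPTOR was 0.12 in the 8 numbered libraries, with and without the replicate block. With AraC and venetoclax libraries less control venetoclax replicate 1, added after seeing the data, AKT2 was 0.053 and RPTOR 0.22. The difference of the venetoclax responses of MLST8 was 0.0074 with DESeq2 size factors and with DESeq2.

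Leaving out each library in turn turned the direction of the following values, given as lowest to highest. For MK-2206 in control cells the log2 range was AKT1 -0.61 to 0.17, MTOR -0.065 to 0.20, RICTOR -0.68 to 0.43 and MLST8 -0.54 to 0.40. In the comparison of STL427944 the log2 range was AKT1 -0.12 to 0.27, AKT2 -0.085 to 0.14, PDPK1 -0.0084 to 0.24, RPTOR -0.043 to 0.096 and MAPKAP1 -0.39 to 0.16. For AraC in control cells the log2 range was PDPK1 -0.026 to 0.11, MTOR -0.027 to 0.21 and RICTOR -0.17 to 0.048. In the comparison of venetoclax in control cells the log2 range was AKT1 -0.24 to 0.53, AKT2 -0.26 to 0.26, PDPK1 -0.13 to 0.45, MTOR -0.16 to 0.065, RPTOR -0.24 to 0.17 and MAPKAP1 -0.21 to 0.11. For FOXM1-KD within DMSO the log2 range was AKT2 -0.42 to 0.014 and MTOR -0.25 to 0.0086. In the comparison of FOXM1-KD within AraC the log2 range was AKT2 -0.33 to 0.14, RICTOR -0.45 to 0.068 and RPTOR -0.021 to 0.38. For FOXM1-KD within venetoclax the log2 range was AKT2 -0.32 to 0.20 and RPTOR -0.21 to 0.23. In the comparison of AraC in FOXM1-KD cells the log2 range was AKT2 -0.43 to 0.056, RICTOR -0.30 to 0.23, RPTOR -0.11 to 0.26, MLST8 -0.29 to 0.032 and MAPKAP1 -0.27 to 0.056. For venetoclax in FOXM1-KD cells the log2 range was AKT2 -0.12 to 0.37 and PDPK1 -0.16 to 0.30. In the comparison of FOXM1-KD over the 3 treatments the log2 range was RPTOR -0.15 to 0.023. For the difference of the AraC responses the log2 range was AKT1 -0.14 to 0.28, AKT2 -0.099 to 0.37, RICTOR -0.14 to 0.37 and MAPKAP1 -0.0062 to 0.18. In the difference of the venetoclax responses the log2 range was AKT1 -0.17 to 0.56, AKT2 -0.14 to 0.39, PDPK1 -0.35 to 0.21 and MLST8 -0.061 to 0.058. The log2 difference of the ratios ran from -0.59 to -0.39 for MAPKAP1:RICTOR and from -0.41 to -0.29 for MTOR:MLST8, with adjusted exact permutation p up to 0.102 and 0.111. The cause of these shifts was not tested.

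With all 16 libraries in 1 fit 927 genes passed with AraC in control cells (4433 in the comparison as reported), 472 (1735) in the difference of the AraC responses, 89 (0) with STL427944 and 34 (0) with venetoclax. With DESeq2 304 passed with venetoclax in FOXM1-KD cells (505) and 60 in the difference of the venetoclax responses (196), where filterByExpr gave 0. Without STL427944 replicate 1, 3590 passed with that drug, and without either AraC library none passed with AraC in either genotype. The cause was not tested. Without either control DMSO library 9289 and 9201 passed with MK-2206 (14642) and 3626 and 3551 in FOXM1-KD within DMSO (8734). Leaving out 1 library also gave 2069 and 2352 with AraC in control cells without a DMSO library, 3784 and 4039 for FOXM1-KD within venetoclax without a FOXM1-KD library, 0 to 234 with venetoclax in FOXM1-KD cells, and 277 to 2365 and 0 to 191 for the differences of the AraC and venetoclax responses. The MK-2206 libraries had the lowest totals.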
